A study of Drosophila melanogaster with 8 samples.

Results

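The genes expressed by circulating hemocytes of Drosophila melanogaster larvae on ordinary food were described from the 4 control-diet libraries of a series of 8 RNA-seq libraries. The 4 libraries, named CD replicates 1, 3, 4 and 5, were taken by their diet label alone, and the 4 libraries of larvae on a high-sugar diet were not used here. All 4 came from larvae of the third instar that the labels give as wild type, reared at 25 °C on a standard sucrose-yeast medium (CD) and bled at 96 h after egg laying. The cells carried hmlΔ>2xeGFP, a GFP reporter driven through a promoter fragment of Hemolectin (Hml), and 20000 GFP-positive single cells were sorted for each replicate. The gate admitted cells in which the Hml promoter was or had recently been active, so hemocytes without it were not sampled, and each hemolymph collection pooled 5 larvae. Hml itself was therefore part of how the cells were chosen. All 4 libraries shared batch 1, poly(A) selection, 18 PCR cycles and paired-end reads of 150 nt. Nothing in the labels says whether the replicates were separate cultures of larvae, so the spread between them may be technical, biological or both.

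Drosophila larvae carry 3 classes of hemocyte. Plasmatocytes are the macrophages: they engulf debris and microbes through scavenger and Nimrod-family receptors and secrete collagen IV, laminin and other matrix proteins into the hemolymph. Crystal cells store prophenoloxidases, the enzymes that make melanin at wounds, and depend on the Runx factor Lozenge (lz). Lamellocytes are flat cells that wrap parasitoid eggs and are scarce in larvae that have not been parasitised. In bulk RNA from a sorted pool, fewer cells of a class and less RNA per cell cannot be told apart.

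Summed gene counts were 20817891, 24733521, 21452457 and 22090051 in replicates 1, 3, 4 and 5. Replicate 1 stood apart from the others. It carried many-fold more heat-shock transcripts, and its short genes were higher and its long genes lower than in the other libraries. Among the 4908 genes that averaged 20 or more CPM (counts scaled to library size with TMM factors), 87.2% lay within 10% of each other in replicates 3 and 4, 84.4% in replicates 3 and 5 and 79.5% in replicates 4 and 5, against 47.0% to 52.6% for the 3 pairs with replicate 1. Values are given below for each library in the order of replicates 1, 3, 4 and 5, as means ± SD over the 4, and without replicate 1 where they rest on it.

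The transcriptome was concentrated on secreted matrix proteins, prophenoloxidases and the translation machinery. A mean of at least 1 CPM was reached by 7286 of 11769 listed genes, 1572 reached 100 CPM, 172 reached 1000 CPM and 10 reached 10000 CPM. The 10 most abundant genes held 14.3 ± 0.644% of all counts (SD, n = 4), the 100 most abundant held 38.8 ± 0.545% and the 1000 most abundant held 74.4 ± 0.864%. Protein-coding genes took 96.8 ± 0.456% of the counts. Genes in 27 functional classes, 846 genes together, held 51.4 ± 1.68% of the counts, other named protein-coding genes held 36.3 ± 1.44% and genes known only by a CG number held 10.4 ± 0.141%.

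Papilin (Ppn), a proteoglycan-like matrix protein, was the most abundant gene in every library, with 18409, 19771, 21991 and 22141 CPM. Hml, a large clotting protein, came next by mean with 14923, 18393, 19527 and 18605 CPM, and its lowest value was in replicate 1. PPO2, a prophenoloxidase of crystal cells, stood at 17907, 17815, 17549.8 and 14949 CPM. It exceeded Hml in replicate 1, lay below Hml in the other 3, and was lowest in replicate 5. Col4a1, a chain of collagen IV, gave 15533 ± 1755 CPM and the translation elongation factor eEF1alpha1 gave 14691 ± 185 CPM. The elongation factor was the steadier of the pair: its 4 libraries ran from 14428 to 14859 CPM. The mitochondrial large ribosomal RNA mt:lrRNA followed with 12493 ± 2166 CPM, and regucalcin, a calcium-binding protein, with 12302 ± 954 CPM. Peroxidasin (Pxn), the enzyme that crosslinks collagen IV, reached 12062 ± 314 CPM, the second collagen chain vkg 10335 ± 1325 CPM, and the other prophenoloxidase PPO1 10138 ± 789.9 CPM. Those 10 genes were the only ones above 10000 CPM.

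**Figure D1:**
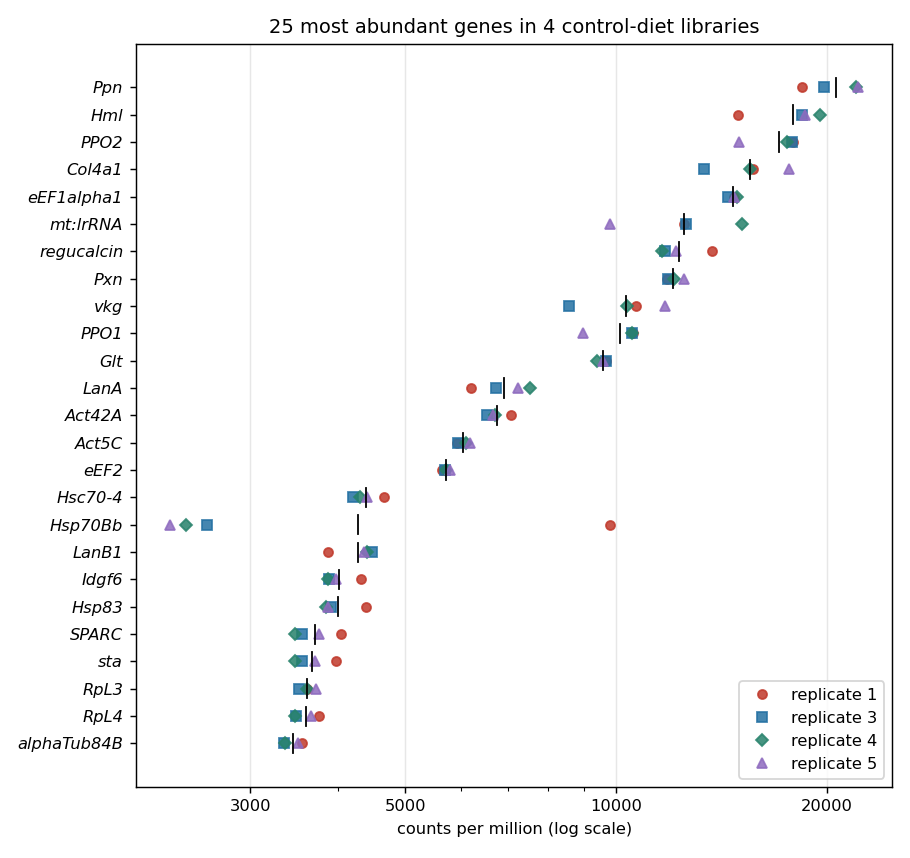
CPM on a log axis for the 25 genes of highest mean, 1 symbol per library and a black tick at the mean of the 4. Most rows are tight, while Hsp70Bb lies at 9790.2 CPM in replicate 1 and between 2307 and 2607 CPM in the other 3.

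CPM favours long transcripts, so levels of different genes are compared below in TPM, which divide each count by the exonic length of the gene and scale each library to the same sum. On that scale the order changed. The mitochondrial rRNA was the first with 17572 ± 3263 TPM, followed by PPO2 with 13912 ± 1145 TPM, regucalcin with 13372 ± 339.8 TPM, eEF1alpha1 with 11102 ± 584 TPM and PPO1 with 8066 ± 650.5 TPM. Ppn, with an exonic length of 9544 bases, dropped to rank 41 with 4026 ± 527 TPM, and Hml, with 11756 bases, to rank 91 with 2842 ± 453 TPM. Ribosomal protein genes filled 7 of the next 10 places, led by RpLP2 with 7858 ± 307 TPM, RpL27A with 6657 ± 241 TPM and RpL41 with 6493 ± 262 TPM. The 100 genes of highest TPM held 43.7 ± 0.228% of the TPM sum. Of the genes named here, CG6650, crq, Karl, He, Treh, srp, RpL3, CtsL1, msl-2, elav and bam share more than 10% of their exonic length with another gene, and the strand setting of the counting is not given in the sources used here, so reads of those partners cannot be told apart from theirs.

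The labelled cell type was checked against hemocyte markers. Hml, NimC1, Ppn and PPO1 were present in all 4 libraries. NimC1, a Nimrod receptor that marks plasmatocytes, was far less abundant than the other 3, with 185, 226, 226 and 231 CPM, and was lowest in replicate 1. Per unit of length, Hml stood 23.03 ± 0.778 times above NimC1, and that ratio ranged from 22.6 to 24.2 in the 4 libraries although both genes were lowest in replicate 1. All 11 plasmatocyte markers exceeded 1 CPM, with a summed level of 81187 to 92027 CPM across the libraries. All 7 crystal cell markers did too, with 24246 to 28793 CPM, so the sorted pool that the labels call macrophages also held crystal cell transcripts. Of 7 lamellocyte markers, 4 exceeded 1 CPM and the sum was 1361 to 1722 CPM, most of it from cytoskeletal genes that other cells also use.

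Defining markers of muscle, gut, salivary gland, nervous system and imaginal discs were low. Summed levels were 12.6 to 14.9 CPM for 8 muscle markers, 0.652 to 1.78 CPM for the 5 gut markers with a row, 0.277 to 4.11 CPM for 5 salivary gland markers, 6.52 to 9.72 CPM for 5 neuron and glia markers and 11.5 to 14.4 CPM for the 3 imaginal disc markers with a row. Jon99Ci, a gut protease, and ng1, a salivary gland gene, had no count in 89093920, which allows up to 0.0337 CPM. The 6 fat body markers with a row varied more, from 14.2 CPM in replicate 5 to 69.99 CPM in replicate 3. The larval serum protein gene Lsp1beta was likewise highest in replicate 3, with 17.5, 23.5, 6.11 and 6.15 CPM, and Fbp2, a fat body protein, gave 14.2, 10.8, 2.54 and 2.19 CPM. Replicates 1 and 3 were the higher pair in both genes. The 5 lymph gland markers summed to 507 to 619.6 CPM, nearly all of it from the thioester protein gene Tep4 with 554 ± 48.4 CPM. Longer lists for these tissues, which also hold genes that other cells use, summed to more. The 19 muscle genes reached 1561 to 2809 CPM, of which Msp300 alone gave 2095 by mean, the 70 epidermal and cuticle genes 292 to 462 CPM, the 14 nervous system genes 140.5 to 150.1 CPM and the 16 fat body genes 100 to 238 CPM, with the highest fat body value in replicate 1. Their part in the results was not tested.

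**Figure D2:**
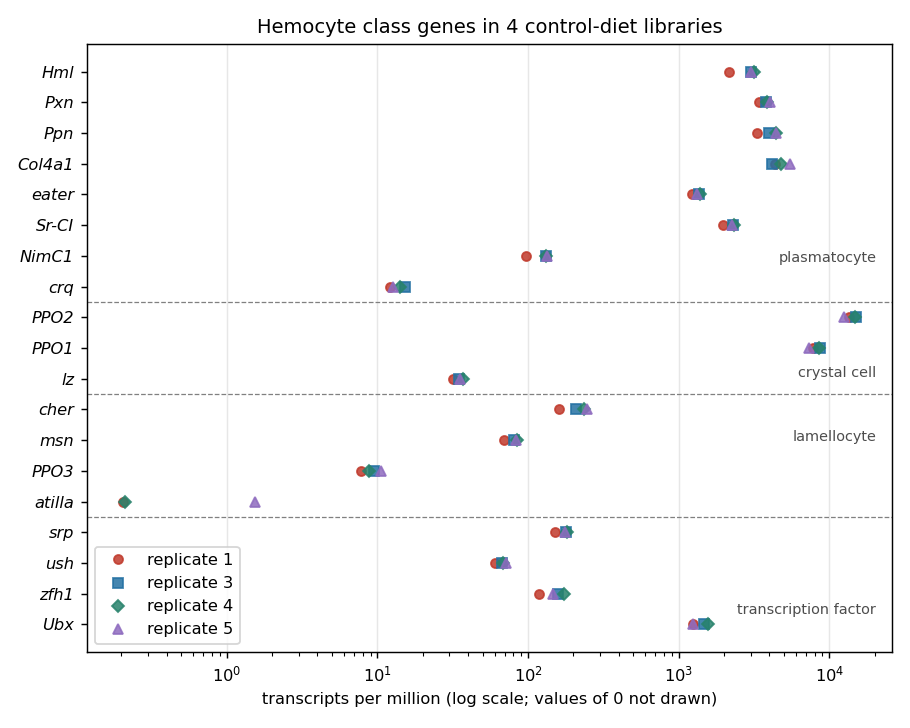
TPM on a log axis for genes of the 3 hemocyte classes and for 4 transcription factors, 1 symbol per library. PPO1 lies at 8066 TPM by mean and PPO2 above it, the 8 plasmatocyte genes drawn spread from 13.5 TPM for crq to 4690.2 TPM for Col4a1, and atilla lies near 0.

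Extracellular matrix genes formed a large group of secreted products. The 21 genes of the matrix list held 9.03 ± 0.628% of the counts, with 8.38%, 8.67%, 9.28% and 9.79% in the 4 libraries, and 8 of them were among the 25 most abundant genes. The matrix share was 3.17 ± 0.217% of TPM, and it was 3.71% of the counts when the 10 most abundant genes, 4 of them on the list, were left out. Collagen IV is made from the products of Col4a1 and vkg, which lie next to each other on chromosome 2L. Col4a1 gave 15684, 13325, 15507 and 17617 CPM and vkg gave 10681, 8551, 10373 and 11737 CPM. Both were lowest in replicate 3 and highest in replicate 5, and the TPM ratio of Col4a1 to vkg stayed at 1.59 ± 0.0400. SPARC, a collagen-binding protein that is shorter, gave 4048, 3564, 3476 and 3766 CPM and exceeded both collagen chains per length at 5744 ± 192 TPM. Glutactin (Glt), a sulphated basement membrane protein, had 9571 ± 127 CPM and Pxn 12062 ± 314 CPM, with libraries within a narrow range in each. The CPM of Glt differed between libraries by a factor of only 1.03.

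Laminin is a trimer of alpha, beta and gamma chains. LanA, an alpha chain, reached 6207, 6726, 7522 and 7232 CPM, LanB1, the beta chain, 3880.4, 4479.8, 4409 and 4357 CPM, and LanB2, the gamma chain, 3034, 3230, 3224 and 3305 CPM. All 3 were lowest in replicate 1. On the TPM scale the 3 chains lay close together, with LanB1 at 1.15 ± 0.0645 times LanA and 1.26 ± 0.0460 times LanB2. Further matrix genes were Tig, which encodes an integrin ligand, with 1959 ± 172 CPM, and Plod, which encodes a collagen lysyl hydroxylase, with 1169 ± 54.4 CPM. Perlecan (trol) was low at 96.9 ± 9.17 CPM and 8.76 TPM, although its exons span 20674 bases. LanB2, Tig, Plod and trol were named after their values were seen.

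The clotting and plasma protein list, 22 genes, held 2.30 ± 0.235% of the counts, with Hml as its most abundant member. Without replicate 1 the share was 2.42 ± 0.0431%. Idgf6, a chitinase-related growth factor, followed with 4320.1, 3892, 3873 and 3974 CPM, the highest value in replicate 1. Its relative Idgf3 had 416 ± 6.46 CPM and the lipocalin Karl 309 ± 16.8 CPM. Fondue (fon), a clot protein, was low with 0.903, 1.58, 0.231 and 0.937 CPM. Apoltp, a lipid transfer protein usually studied in fat body, gave 59.8 ± 3.09 CPM.

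Phagocytosis receptors were expressed at very different levels. Of 26 listed genes, 20 reached 1 CPM, and together they held 0.805 ± 0.0255% of the counts. The scavenger receptor Sr-CI led with 2519, 2647, 2689 and 2602 CPM, and eater, the Nimrod receptor for bacteria, had 2374, 2356, 2401 and 2295 CPM. Both differed little between libraries. The secreted Nimrod NimB4 had 1291 ± 105 CPM, with its highest value in replicate 1. Draper (drpr), the receptor for apoptotic cells, had 429.8, 508, 487 and 496 CPM and was lowest in replicate 1. Croquemort (crq), a CD36-family receptor for apoptotic cells, was scarce with 20.1, 22.7, 20.96 and 19.0 CPM, and its libraries did not differ beyond counting noise. NimC4, another receptor for apoptotic cells, had 81 counts in 4 libraries. Hemese (He), a sialophorin-like surface protein of all hemocyte classes, had 531, 526, 579 and 514 CPM. The opsonin-like thioester proteins were led by Tep4, with Tep1 at 378, 434, 464 and 441 CPM, Mcr at 60.7 ± 7.85 CPM and Tep2 at 11.4 ± 1.93 CPM. Tep4, Tep1 and Mcr were lowest in replicate 1, and Tep2 was highest there.

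Crystal cell genes held 2.98 ± 0.227% of the counts, with 2.98%, 3.16%, 3.10% and 2.65% in the 4 libraries, and PPO2 and PPO1 accounted for most of that. With the 10 most abundant genes left out, both of them included, the share was 0.300%. PPO1 stood at 10563, 10516, 10518 and 8953 CPM. Both prophenoloxidases had close values in replicates 1, 3 and 4 and a lower one in replicate 5, and the TPM ratio of PPO2 to PPO1 was 1.72 ± 0.0151, the steadiest of 14 ratios examined. The malic enzyme gene Men, a crystal cell marker in single-cell studies, showed the same pattern with 1688, 1724, 1699.6 and 1431 CPM. The gene fok, also a crystal cell marker, was lowest in replicate 5 and highest in replicate 1, with 308, 242, 250.2 and 187 CPM. The crystal cell factor lz did not: it gave 64.8, 63.1, 67.2 and 63.8 CPM, and its libraries did not differ beyond counting noise. Pebbled (peb), a zinc-finger factor of crystal cells, gave 67.7, 82.8, 99.2 and 81.7 CPM, and the gene CG17109 gave 47.6, 69.4, 87.01 and 52.1 CPM. Replicate 5 was the lowest for PPO2, PPO1, Men and fok but not for lz, peb or CG17109. Whether the number of crystal cells or their RNA per cell differed was not tested.

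Lamellocyte genes were low or shared with other cells. The list of 13 held 0.276 ± 0.0356% of the counts. PPO3, the lamellocyte prophenoloxidase, had 10.18, 11.1, 10.3 and 12.3 CPM, and atilla, the L1 surface antigen, had 0.100, 0.000, 0.0925 and 0.669 CPM, where replicate 5 held most of the counts. ItgaPS4, an integrin alpha chain, had 2 counts in 1 library. The larger values belonged to cytoskeletal and adhesion genes: cher, which encodes filamin, had 879.6, 1018, 1158 and 1209 CPM, rhea, which encodes talin, 507 ± 45.3 CPM, and mys, the beta integrin, 318 ± 36.6 CPM. The trehalase gene Treh was nearly constant with 91.99, 95.3, 92.8 and 94.01 CPM.

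Transcription factors of the hemocyte lineage took 0.584 ± 0.0587% of the counts over 37 genes, of which 32 reached 1 CPM. The GATA factor serpent (srp), required for hemocyte fate, had 513, 544, 557 and 536 CPM, and its cofactor u-shaped (ush) 238, 236, 238 and 252 CPM. The zinc-finger homeobox gene zfh1 gave 478, 571, 624 and 533 CPM, Stat92E, the JAK/STAT factor, 405, 469.7, 491 and 452 CPM, and Xbp1, the factor of the unfolded protein response, 703, 619.8, 596 and 612 CPM. Xbp1, the shortest of those 5 by exonic length, was highest in replicate 1, while srp, zfh1 and Stat92E were lowest there. Longer loci such as lola with 366 ± 39.1 CPM and the ecdysone-response gene br with 359 ± 37.7 CPM were lowest in replicate 1 as well. On the TPM scale the means were lower for ush and lz than for the others, with srp at 172, Stat92E at 163, zfh1 at 149, ush at 66.9 and lz at 34.8 TPM.

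Abundant genes outside all lists included Inos, which encodes inositol-3-phosphate synthase, with 3460.1, 3257, 3210.2 and 3277 CPM, and visgun (vsg), which encodes a mucin-like membrane protein, with 3217, 3299, 3385 and 3079 CPM. Inos was highest in replicate 1 and vsg in replicate 4. Of genes known only by number, CG10467 had 2034, 1834, 1827 and 1470.4 CPM and CG8501 1837, 1480.3, 1407 and 1514 CPM, and their functions are left unnamed. Those 4 genes were named after their values were seen.

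Counts assigned to a Hox gene were also high, and it was named after its values were seen. Ultrabithorax (Ubx), a Hox gene of the posterior thorax and anterior abdomen, ranked 30 among all genes by mean CPM, with 3094, 3294, 3498 and 2784 CPM and 1378 ± 164 TPM. Its mean CPM exceeded that of all 37 genes of the transcription factor list, and replicate 5 was the lowest. The Hox genes abd-A, Abd-B and Antp were close to absent: abd-A had 10 counts in 4 libraries, Abd-B none, and Antp 1. The counts do not show which part of the Ubx locus the reads came from. Whether they came from the gene itself or from elsewhere, such as the reporter construct, was not tested.

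Ribosomal protein genes were the largest functional class. The 89 genes held 15.1 ± 0.701% of the counts and 29.9 ± 0.875% of the TPM sum, and 86 of them reached 1 CPM. The class stood at 15.99%, 14.6%, 14.48% and 15.4% of the counts, highest in replicate 1, and at 14.8 ± 0.482% without it. Per length the middle 80% of the 86 genes at 1 TPM or more lay between 1711 and 5005 TPM. The stalk protein gene RpLP2 was 2.09 ± 0.0691 times RpLP0, its partner in the stalk. The genes below 1 CPM were 3 second copies, the lowest of them RpS10a. By CPM the list was led by sta with 3681 ± 219 CPM, RpL3 with 3623 ± 83.9 CPM and RpL4 with 3602 ± 141 CPM.

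The 49 translation factors added 4.11 ± 0.105% of the counts. After eEF1alpha1, eEF2 had 5638, 5700.4, 5717 and 5791 CPM, the poly(A)-binding protein pAbp 3019.6 ± 243 CPM and eEF1gamma 2761 ± 81.6 CPM. The mitochondrial ribosome was expressed far lower: the median TPM of its 71 genes was 67.6, against 3512 for the 86 genes of the cytosolic ribosome at 1 TPM or more, and all 71 reached 1 TPM.

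Genes of the mitochondrial genome held 1.90 ± 0.325% of the counts, with 1.79%, 1.94%, 2.32% and 1.54%. Replicate 4 was highest and replicate 5 lowest, and mt:lrRNA, mt:CoI with 2037, 2149, 2558 and 1770.4 CPM, mt:CoIII with 1684, 1579, 1943 and 1348 CPM and mt:Cyt-b with 874, 936, 1165 and 796 CPM all followed that order at both ends. The 76 nuclear genes of the respiratory chain did not follow it and held 1.22%, 1.17%, 1.16% and 1.19%. They were led by the ATP synthase subunits blw with 1458 ± 17.5 CPM and ATPsynC with 1325 ± 28.01 CPM.

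**Figure D3:**
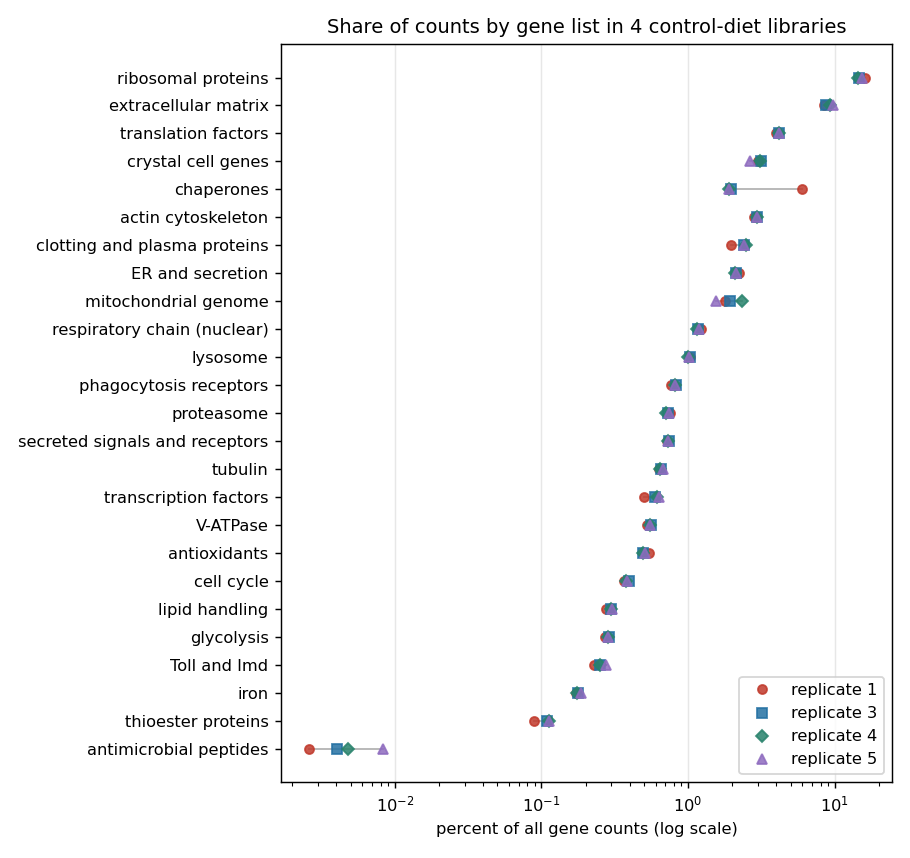
Percent of all gene counts on a log axis for 25 gene lists, 1 symbol per library and a grey line from the lowest to the highest. Chaperones in replicate 1 (5.94%) and antimicrobial peptides (0.00260% to 0.00829%) spread most, and the lists share some genes.

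Genes of secretion and degradation were broadly detected. The 54 genes of the endoplasmic reticulum and secretion all reached 1 CPM and held 2.13 ± 0.0539% of the counts. They were led by the disulphide isomerase ERp60 with 3247, 2968, 2992 and 3029 CPM, calreticulin (Calr) with 2739, 2339.7, 2244 and 2386 CPM and the BiP chaperone Hsc70-3 with 1984, 1639.9, 1675 and 1644 CPM. Each was highest in replicate 1. Lysosomal genes held 1.02 ± 0.0150%, and the saposin precursor gene Sap-r was among the steadiest genes of all, with 1919, 1907, 1923 and 1928 CPM. Hexo2, a hexosaminidase, had 1751 ± 132 CPM, the cathepsin gene CtsL1 1362 ± 56.9 CPM and the mannosidase gene LManII 1221 ± 22.7 CPM. Of 28 V-ATPase genes, the proton pump that acidifies lysosomes, 17 reached 1 TPM and 11 did not. The highest was Vha16-1, a subunit of the membrane ring, with 1346 ± 75.6 CPM. Of 36 proteasome genes 33 reached 1 TPM, and the middle 80% of those lay between 199 and 457 TPM.

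The actin cytoskeleton list held 2.92 ± 0.0698% of the counts. Its leaders were the cytoplasmic actin genes Act42A with 7066, 6539, 6716 and 6666 CPM and Act5C with 5925, 5949, 6102 and 6182 CPM. Per length Act42A stood 2.05 ± 0.0933 times above Act5C. How reads that match both actin genes were counted is not given in the sources used here, so that ratio is uncertain. The actin-severing protein gene Gel had 1721 ± 28.9 CPM and the ERM protein gene Moe 1717 ± 88.5 CPM. Tubulin genes held 0.650 ± 0.0162%, mainly alphaTub84B with 3452 ± 104 CPM and betaTub56D with 2468 ± 32.0 CPM. Msp300, a nesprin known for its role in muscle, had 1437, 2175, 2659 and 2110 CPM although the 8 muscle markers together stayed under it in every library, at 12.6 to 14.9 CPM. With 69810 exonic bases it came to 56.4 ± 15.6 TPM, and it was lowest in replicate 1.

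Metabolic genes were expressed at moderate levels. The 14 glycolytic genes held 0.282 ± 0.00742% of the counts, with Ald1, the aldolase gene, at 639 ± 41.97 CPM and PyK, the pyruvate kinase gene, at 638 ± 33.9 CPM. Lactate dehydrogenase (Ldh) was scarce at 3.35 ± 0.597 CPM and was named after its value was seen. Lipid genes held 0.293 ± 0.0132%. The lipophorin receptor LpR2 had 408, 511, 498 and 484 CPM and the fatty acid synthase FASN1 262, 311, 360.1 and 380.5 CPM, both lowest in replicate 1, whereas the lipid droplet protein gene Lsd-2, also named after its values were seen, was highest there with 331, 211, 208 and 237 CPM. The ferritin subunits Fer2LCH with 606 ± 19.9 CPM and Fer1HCH with 553 ± 27.1 CPM kept a TPM ratio of 1.58 ± 0.0675. The glutathione transferase GstD1 led the antioxidant genes with 1904, 1529, 1587 and 1649 CPM, and the metallothionein MtnA had 642, 484, 497 and 445 CPM. Both were highest in replicate 1.

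Among ligands and receptors, the PDGF/VEGF receptor Pvr, which supports hemocyte survival, had 690.1, 798, 807 and 788 CPM, and the Toll ligand spz 618, 645, 667 and 612 CPM. The BMP-type ligand dpp, named in the title of the study, was detected in control-diet hemocytes, with 41.6, 45.2, 43.7 and 45.2 CPM. The libraries of dpp did not differ beyond counting noise. Its values lay above 20 CPM, a mean that 4908 genes reached, and below 100 CPM, which 1572 reached. Its relative gbb had 90.1 ± 6.68 CPM and the activin-like ligand myo 80.99 ± 9.27 CPM. Per length gbb, at 99.2 TPM, exceeded dpp, at 15.7 TPM. The genes dpp, gbb and myo were named after their values were seen.

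Cell cycle genes were all detected. The 38 genes exceeded 1 CPM and held 0.381 ± 0.0124% of the counts. Top2, the replicative topoisomerase gene, had 305, 365, 339 and 348 CPM, the mitotic phosphatase gene stg 239.7, 231, 228 and 196 CPM, and the mitotic kinase gene polo 193, 195, 194 and 196 CPM. Replicate 5 was the lowest for stg, while polo was among the 5 least variable genes.

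Antimicrobial peptide genes were low, at 0.00492 ± 0.00242% of the counts and 0.0273 ± 0.0129% of the TPM sum. Of the 19 genes, 7 reached 1 CPM, and 12 further symbols of the list were matched to no row among the genes used. Metchnikowin (Mtk), an antifungal peptide, gave 13.5, 16.8, 18.9 and 23.6 CPM, Drosomycin (Drs), the main readout of Toll signalling, 3.61, 8.12, 10.6 and 22.9 CPM, and the cecropin CecC 3.26, 5.82, 7.22 and 13.96 CPM. In all 3 genes replicate 1 was lowest and replicate 5 highest. Components of the Toll and Imd pathways, which detect microbes and switch on these peptides, were present at 0.251 ± 0.0195% over 25 genes, with the serpin Spn27A, an inhibitor of the melanization protease, at 589 ± 50.7 CPM and the inhibitor cact at 151 ± 8.54 CPM. The Toll-branch factor Dif had 58.9 ± 4.16 CPM.

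The dosage compensation RNA lncRNA:roX1, which coats the male X chromosome, had 251, 409.8, 462 and 352 CPM. Sxl, the switch gene of female development, had 87.3, 98.98, 99.5 and 89.7 CPM and msl-2, which encodes a male-specific subunit of the same complex, 29.04, 46.97, 47.9 and 45.5 CPM. The roX1 value of replicate 1 was the lowest and that of replicate 4 the highest. The sexes of the pooled larvae were not given in the labels used here.

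The spread between the 4 libraries was small for most genes and exceeded counting noise for about as many as not. A Pearson chi-square test of each gene's counts against the library sizes, adjusted by Benjamini-Hochberg over the 7849 genes with a mean of at least 10 counts, found 4168 genes past an adjusted p of 0.05, or 53.1%. The share grew with abundance, from 30.3% of genes between 1 and 5 CPM to 98.8% of those above 1000 CPM, as the test resolves smaller differences in deeper counts. Without replicate 1 the test called 1792 of 7916 genes, or 22.6%, and without replicates 3, 4 and 5 in turn it called 52.2%, 48.1% and 47.8%. The size of the spread was read from the biological coefficient of variation (BCV), the part of a gene's relative SD that counting noise does not account for. Its median was 0.0596 over the 7849 genes and 0.0274 without replicate 1. Of the 4908 genes at 20 CPM or more, 4019 had a coefficient of variation under 10%, and 38 had one above 30%.

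Against that background of 53.1%, which is not matched for abundance, the lists differed in how many members passed the test. Ribosomal protein genes passed in 85 of 86 tested, proteasome genes in 32 of 33, transcription factors in 28 of 32, matrix genes in 16 of 19, crystal cell genes in 12 of 14, phagocytosis genes in 12 of 22 and Toll and Imd genes in 8 of 22. These shares depend on abundance. Of all tested genes, 56.4% passed at 20 to 100 CPM, 85.6% at 100 to 1000 CPM and nearly all above that. The BCV is therefore given beside them. Among members at 20 CPM or more, the median BCV was 0.0247 for Toll and Imd genes and 0.0360 for the V-ATPase. It was 0.0536 for phagocytosis genes, 0.0582 for the proteasome, 0.0690 for the matrix and 0.0744 for transcription factors. The ribosome had 0.0790, crystal cell genes 0.0936 and the mitochondrial genome 0.169. All of these medians include replicate 1. At 20 CPM or more, 617 genes shared the lowest BCV estimate, 0.00988. The 5 of them with the smallest coefficient of variation were CG11357, Sap-r, sqh, polo and CG6650. CG11357 gave 155, 156, 156 and 156 CPM, and sqh, the regulatory light chain of nonmuscle myosin, gave 194, 192, 193 and 193 CPM.

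The deviation of replicate 1 followed gene length. Each library's CPM was divided by the median of the 4 for each gene. In replicate 1 the median log2 ratio was 0.18 for 524 genes of up to 1000 exonic bases, 0.09 for genes of 1001 to 2000, -0.01 for 2001 to 4000, -0.15 for 4001 to 8000 and -0.27 for 276 genes above 8000 bases. In the other 3 libraries the medians lay between -0.03 and 0.09. Across 4876 genes, which are not independent of each other, Spearman's rho between length and that ratio was -0.77 in replicate 1, 0.31 in replicate 3, 0.44 in replicate 4 and 0.085 in replicate 5. Lists did not all follow that order. By summed CPM the ribosomal list, whose median member has 916 exonic bases, was highest in replicate 1. The matrix list, with a median of 5916 bases, was lowest in replicate 3, at 87507, 84941, 92084 and 96401 CPM. By share of counts the matrix list was instead lowest in replicate 1, at 8.38%, 8.67%, 9.28% and 9.79%. Genes of the mitochondrial genome, with a median of 439.5 bases, were highest in replicate 4. The part of length in the differences of single genes was not tested.

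**Figure D4:**
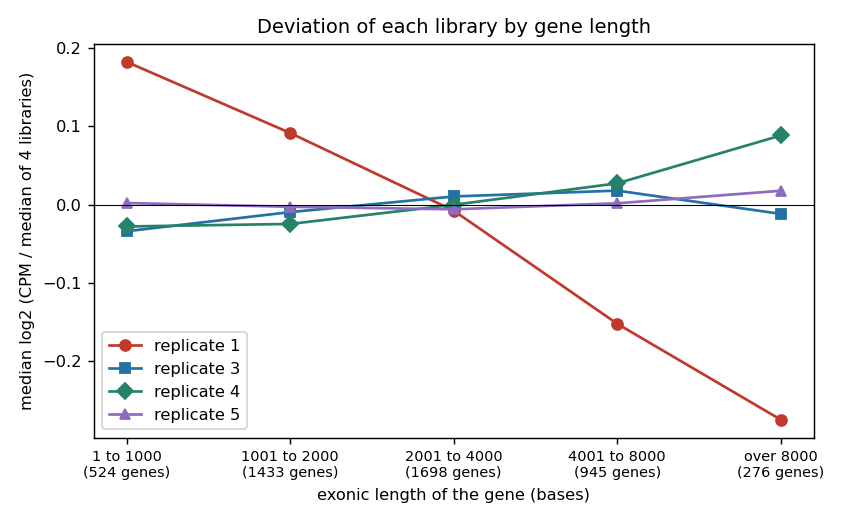
Median log2 ratio of CPM to the median of the 4 libraries (y axis) in 5 classes of exonic length (x axis), 1 line per library, for genes at 20 CPM or more. Replicate 1 declines from 0.18 to -0.27 while the others stay between -0.03 and 0.09.

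Beyond that trend, replicate 1 differed in the heat-shock genes, chaperones induced by protein damage. The chaperone list of 28 genes took 5.94%, 1.97%, 1.90% and 1.90% of the counts in replicates 1, 3, 4 and 5, which is 1.93 ± 0.0417% without replicate 1. The 6 Hsp70 copies summed to 39452, 4292, 3973 and 3503 CPM. The related gene Hsp68 had 1687, 111, 116 and 107 CPM, and the small heat-shock genes Hsp26 and Hsp23 had 1314, 103, 92.9 and 94.9 CPM and 1491, 186, 173 and 173 CPM. The co-chaperone gene DnaJ-1 had 991, 204, 199 and 193 CPM. In each of these the values of replicates 3, 4 and 5 lay close together and replicate 1 stood several-fold above them. The chaperone genes Hsc70-4 and Hsp83 differed less, with Hsc70-4 at 4657, 4203, 4301 and 4406 CPM and Hsp83 at 4396, 3917, 3848 and 3872 CPM. Both were highest in replicate 1. Of 4908 genes, 17 were more than 2-fold above the median library in replicate 1 and 4 more than 2-fold below it, and the heat-shock genes made up 11 of the 17. Another of them was sugarbabe (sug), a sugar-responsive transcription factor gene, with 122, 11.8, 15.03 and 23.9 CPM.

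The counts assigned to the Hsp70 copies were not alike. Hsp70Bb, at position 12505793 to 12508139 of chromosome 3R, had 9790.2, 2607, 2427 and 2307 CPM, while the 5 other copies lay between 173 and 394 CPM in replicates 3, 4 and 5 and between 4901 and 7847 CPM in replicate 1. The next copy on the chromosome, Hsp70Bbb, at position 12502510 to 12504856, had 7847, 332, 301 and 230.2 CPM. The difference between Hsp70Bb and Hsp70Bbb was 1943, 2275, 2126 and 2077 CPM, a narrower range than that of either gene. Differences from the other 4 copies did not stay so close, with 3925 to 4889 CPM in replicate 1 and 2029.5 to 2359 CPM in the other libraries. The copies are nearly identical in sequence, and how reads that match several of them were counted is not given in the sources used here, so values of single copies are uncertain. Whether the reads of Hsp70Bb came from the gene itself or from elsewhere, such as the reporter construct, was not tested. The copies were compared after their values were seen.

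A second group of genes separated replicate 5 as well as replicate 1. Relish (Rel), the NF-kappaB factor of the Imd pathway, had 100.3, 203, 244 and 463 CPM, and Gadd45, a stress-induced gene, 65.1, 248, 310.4 and 504 CPM. Both were lowest in replicate 1 and highest in replicate 5. The subunits of AP-1, kay (Fos) and Jra (Jun), gave 155, 161, 176 and 259.6 CPM and 102, 109, 124 and 179.6 CPM, and the AP-1 target Mmp1, a matrix metalloproteinase, 31.9, 40.6, 46.8 and 76.4 CPM. In these 3 it was replicate 5 that stood apart from the others. Zip99C, a metal transporter gene, gave 105, 132, 135 and 205 CPM. Of 4908 genes, 14 were more than 1.5-fold above the median library in replicate 5, and Rel, kay, Zip99C, Gadd45, Jra and Mmp1 were 6 of them. The peptides Drs, Mtk and CecC had the same highest and lowest library. The labels used here do not say whether handling before the sort differed between the libraries.

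**Figure D5:**
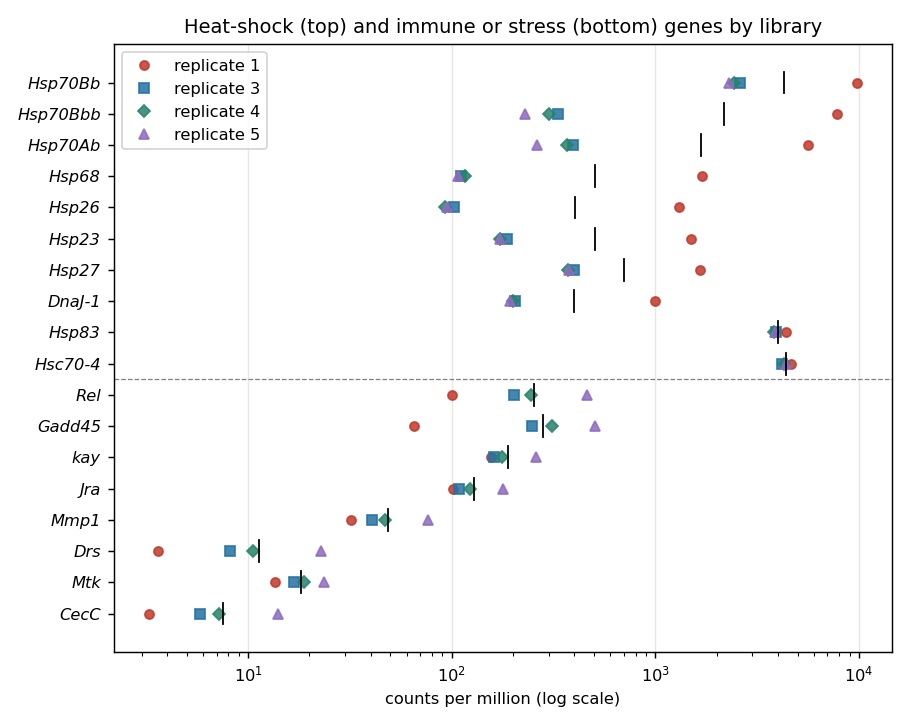
CPM on a log axis for heat-shock and chaperone genes (above the dashed line) and for immune and stress genes (below it), 1 symbol per library and a black tick at the mean. Replicate 1 is far right of the others for 8 heat-shock genes and left of them in the lower panel, where replicate 5 is rightmost.

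Replicates 3 and 5 each had a smaller set of their own. Of X-linked genes, 3 with long exons were low in replicate 3. HERC2, which encodes a ubiquitin ligase of 15917 exonic bases, had 127, 71.8, 154 and 161 CPM, HUWE1, another ubiquitin ligase gene, 205, 157, 282 and 273 CPM, and CG11122 53.9, 29.3, 65.5 and 65.3 CPM. Of the 10 genes more than 1.5-fold below the median library in replicate 5, 7 were rRNA pseudogenes on the X chromosome. The most abundant, 18SrRNA-Psi:CR41602, had 3022, 4106, 3189 and 2044 CPM, and nuclear rRNA and its pseudogenes together took 0.929%, 1.27%, 0.991% and 0.643% of the counts. Poly(A) selection removes most rRNA, and these copies are near-identical to functional rRNA, so their values rest on how shared reads were counted. All genes of this paragraph were named after their values were seen.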

How the data were processed

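RNA of 20000 GFP-positive hemocytes per library was poly(A)-selected and sequenced as paired-end reads. The submitters' processing notes name Trim Galore 0.6.7 as the trimmer, STAR 2.7.10a as the aligner, dm6 as the assembly and featureCounts as the counter. For strand and for reads that map to several places, the setting is not given in the sources used here. The authors deposited raw counts of 11769 genes in 8 libraries, of which the 4 control-diet columns were used. Names and lengths of exons were read from the annotation of Ensembl 115 and from gene name tables. They gave a symbol to 11699 genes, and 71 genes without an exonic length held 0.676% of the counts.

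CPM values used TMM factors (0.958, 1.02, 1.01 and 1.02) from edgeR 4.0.16 in R 4.3.3, and TPM values divided counts by exonic length. Gene-wise BCVs were edgeR estimates from an intercept-only model with no shrinkage. Counting noise was tested by a Pearson chi-square test with 3 degrees of freedom on genes with a mean of at least 10 counts. It treats reads as independent and so ignores PCR copies. Both methods were tested on simulated data, in which the gene-wise BCV came out below the value simulated. DESeq2 1.42.0, other scalings and filters, TPM shares, other denominators and leaving out each library were alternatives.

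The libraries, markers and gene lists were chosen with earlier results of these data known, and lists were trimmed after their genes were matched. The 46 lists name 90 symbols that were matched to no row among the genes used. The 70 genes without a symbol could not be matched by name, so some of the 90 may be counted there. Genes were named by rule: the 25 highest by CPM and 15 by TPM, the 10 largest and 5 smallest BCVs at 20 CPM or more, 4 markers, up to 4 leading members of each list, and members of the hemocyte class and transcription factor lists. Ties in BCV were ranked by coefficient of variation. A further 26 genes were named after their values were seen, fon, RpLP0, DnaJ-1, Gadd45, Mmp1 and 3 noncoding RNAs among them. No sequences are shown, as no sequence table was used here.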

Additional observations from a re-analysis of the deposited data

Results flagged for a closer look

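The genes printed in the text and 28 gene lists were examined for a library that lay far from the other 3. The limit was that the gap to its nearest neighbour, as a part of the whole range, was above Dixon's critical value for 4 samples. The muscle, epidermal and cuticle, nervous system, fat body and noncoding RNA lists were not among the 28 and were not examined. Of 178 results with at least 40 counts, 25 met that limit, 21 of them in replicate 1, 3 in replicate 5, 1 in replicate 3 and 0 in replicate 4. Chance alone flags about 1 in 20 groups of 4, and genes of 1 library are not independent. Genes printed for their large spread, or after their values were seen, were among those examined. The count of 25 therefore cannot be set against that rate.

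Heat-shock genes made up the largest set in replicate 1. Hsp70Bb stood out there at 9790.2 CPM, Hsp70Bbb at 7847 CPM, Hsp68 at 1687 CPM, Hsp26 at 1314 CPM, Hsp23 at 1491 CPM and DnaJ-1 at 991 CPM. The more modest deviations of Hsp83 at 4396 CPM and of the endoplasmic reticulum chaperone Hsc70-3 at 1984 CPM were in the same direction, and the chaperone list held 5.94% of the counts. Other genes high in replicate 1 were sug at 122 CPM, Cpr49Ac at 351 CPM and sro at 9.88 CPM. No cause was tested.

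Genes low in replicate 1 were the plasmatocyte receptor NimC1 at 185 CPM, the survival receptor Pvr at 690.1 CPM, the integrin gene mys at 263 CPM, the transcription factor gene lola at 308 CPM, msl-2 at 29.04 CPM and lncRNA:roX2 at 4.06 CPM, although the libraries of roX2 did not differ beyond counting noise. The lists for clotting and plasma proteins at 1.96%, translation factors at 3.96% and the actin cytoskeleton at 2.81% were also lowest there. By summed CPM, which TMM factors scale, the order of the last 2 differed: translation factors stood at 41299, 40812, 41272 and 41106 CPM and the actin cytoskeleton at 29381, 28818, 29277 and 29209 CPM in replicates 1, 3, 4 and 5, both highest in replicate 1.

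Replicate 5 stood apart in 3 crystal cell genes, PPO2 at 14949 CPM, PPO1 at 8953 CPM and Men at 1431 CPM, all lower than in the other libraries. In replicate 3 the gelsolin gene Gel was the higher outlier at 1764 CPM, although its 4 libraries differed by a factor of 1.04 at most.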

How the results depend on the processing

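The spread between libraries changed most without replicate 1. The number of genes past counting noise ranged from 1792 without replicate 1 to 4087 without replicate 3, and from 3300 to 4309 under other scalings, filters and an adjusted p of 0.01. The median BCV ranged from 0.0274 without replicate 1 to 0.0664 without replicate 3. It was 0.0795 with no filter on low counts and 0.0895 with dispersions shrunk towards the trend, an alternative chosen after seeing the data. Shares of counts depended on the unit. As shares of TPM, the 100 most abundant genes held 43.7%, the matrix list 3.17%, the ribosomal list 29.9% and the crystal cell list 2.40%. With the 10 most abundant genes left out, the matrix list held 3.71%, the ribosomal list 17.6% and the crystal cell list 0.300%. Of 28 list shares, 1 moved by over 1.5 times when a library was left out, that of the chaperones without replicate 1. Of 151 genes, none moved by 1.5 times under another scaling. Without replicate 1 the mean of Hsp70Bb was 2482 CPM, of Hsp70Bbb 292, of Hsp68 113, of Hsp26 98.4, of Hsp23 179.8, of DnaJ-1 202 and of sug 17.2 CPM. Without replicate 5 the mean of Drs was 7.41 CPM and of atilla 0.0639 CPM. Depth limited the precision of genes under about 1 CPM. No paired analysis was possible because all 4 libraries belonged to 1 group. The cause of these shifts was not tested.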

Other observations

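Noncoding RNAs took a small share of the counts. The 846 genes named as long noncoding or antisense RNAs held 0.237 ± 0.0333% of the counts, with 0.193%, 0.254%, 0.269% and 0.232% in replicates 1, 3, 4 and 5, and 97 of them reached 1 CPM. The most abundant, lncRNA:CR42862, had 907, 1251, 1322 and 1214 CPM and was lowest in replicate 1. The heat-shock RNA lncRNA:Hsromega had 150.3, 87.5, 96.6 and 72.1 CPM and was highest in replicate 1. The second dosage compensation RNA, lncRNA:roX2, was scarce with 4.06, 5.66, 5.64 and 5.71 CPM, and its libraries did not differ beyond counting noise.

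The histone list was led by genes of replication-independent variants, whose transcripts carry poly(A) tails. His3.3B, which encodes the H3.3 variant, had 701 ± 28.5 CPM and His2Av, which encodes the H2A variant, had 446 ± 13.1 CPM. Only 4 of 13 histone genes with a value reached 1 CPM. Enzymes of steroid hormone synthesis, the pathway named in the title of the study and known from the prothoracic gland, were low, with sro at 6.11 ± 2.53 CPM and shd, which encodes the enzyme that makes the active hormone in peripheral tissues, at 2.78 ± 0.575 CPM. The cuticle protein gene Cpr49Ac was an exception among the 70 epidermal and cuticle genes, of which 7 reached 1 CPM, with 351, 229.6, 238 and 226 CPM. The neural gene nrv2, a subunit of the sodium pump, had 101 ± 3.20 CPM although elav, the neuronal RNA-binding protein gene, had 7.99 ± 1.29 CPM. The disc and germ line genes ptc and bam had 13.2 ± 1.23 CPM and 12.6 ± 0.551 CPM.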
